A study of Bos taurus with 12 samples.

Results

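The HOX genes were followed along the bovine oviduct as every probeset whose platform annotation held a single symbol made of HOXA, HOXB, HOXC or HOXD and a number. This rule gave 33 genes of the 18010 with a single symbol on the array, each measured by 1 probeset. The HOXA cluster was represented by 9 genes, HOXB by 9, HOXC by 7 and HOXD by 8. Of these, 32 were found by Entrez ID in the bovine RefSeq annotation, and HOXB6 was found there by its symbol only. HOXC10, HOXC11 and HOXD13 were not among the 33, because the array's 2 probesets for them carried more than 1 entry, and neither probeset was called in any contrast. Other genes of these clusters were not analysed here.

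RNA came from epithelial cells of 6 normally cycling Angus heifers, with the isthmus and the ampulla of the same oviduct taken from each animal, which gave 12 arrays and 4 groups of 3. The follicular phase (FP) groups, isthmus and ampulla, were from 3 heifers given 25 mg of prostaglandin F2α, which ends the life of the corpus luteum, on day 6 and killed 36 h later. The luteal phase (LP) groups, isthmus and ampulla, were from 3 heifers killed on day 11 or 12, for which no injection is stated. Phase therefore includes the injection and the day of the cycle, and these cannot be told apart. The cells were pressed out of each segment with forceps and were not sorted, and the oviduct was the one on the side of the corpus luteum (LP) or the preovulatory follicle (FP).

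HOX genes encode homeodomain transcription factors that stand side by side in 4 chromosomal clusters. Low-numbered (anterior) genes at one end of a cluster are used earlier and further forward in the embryo, and high-numbered (posterior) genes at the other end later and further back. In the female tract of the mouse, Hoxa9, Hoxa10, Hoxa11 and Hoxa13 are known for successive domains from the oviduct to the vagina, and many HOX proteins bind DNA together with PBX and MEIS partners. In the adult oviduct the isthmus is the narrow segment next to the uterus, where sperm are stored, and the ampulla is the wider segment nearer the ovary, where fertilization takes place.

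All values are log2 signals of a probeset, so a difference of 1 is a 2-fold change, and signals of different probesets are not compared with each other. Mean signal over the 12 arrays ran from 4.68 for HOXA9 to 9.65 for HOXA5. The lower quartile of all probesets on an array lay between 5.68 and 5.82, and 8 of the 33 genes had a mean at or under that level in all 4 groups: HOXA9, HOXA10, HOXC6, HOXC9, HOXD1, HOXD10, HOXD11 and HOXD12. At such dim signals a change in RNA may go unseen. A further 20 genes were above it in every group. The median SD within groups was 0.16 for the HOX genes and 0.14 for all probesets. In RefSeq the gene models of 14 of the 39 HOX genes listed there overlap that of another, among them HOXD3 with HOXD4, HOXB8 with HOXB9, and HOXB3 with HOXB4 and HOXB6. Whether the probesets keep such neighbours apart is not given in the sources used here.

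The first comparison asked which HOX genes differed between isthmus and ampulla. The genes called in at least 1 tissue contrast were few: HOXD4, HOXD3 and HOXD8 were lower in isthmus, and HOXB8, HOXA2 and HOXB4 were higher there. A call required a change of 1.5-fold or more whose adjusted p was under 0.05 (limma, Benjamini-Hochberg over all 26773 probesets). In the FP, 1 of 33 genes was called, HOXD4, which was lower in isthmus, against 2.35% of all probesets called in this comparison and 0.829% called lower. In the LP, 5 of 33 were called, 3 higher and 2 lower in isthmus, against 6.99% of all probesets, of which 3.92% were higher and 3.07% lower. Averaged over both phases, 4 of 33 were called, 2 in each direction, against 5.91%, of which 3.35% were higher and 2.56% lower. Over all 33 HOX genes the median FP difference was 0.04 beside 0.00 for all probesets, and the median LP difference was 0.06 beside -0.01.

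**Figure D1:**
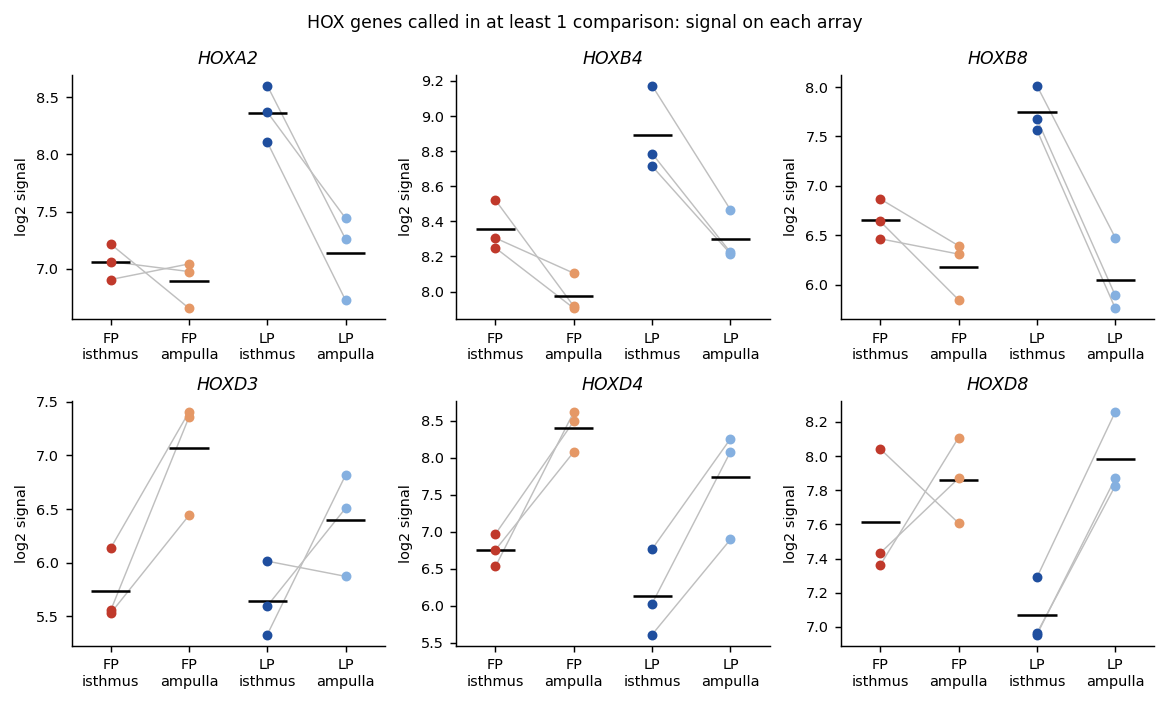
Log2 signal (vertical axes, each with its own range) of the 6 HOX genes called in at least 1 comparison, on each of the 12 arrays; points are arrays, black bars are group means, and grey lines join isthmus and ampulla of 1 heifer. HOXD4 is lower in isthmus in all 6 heifers, and HOXB8 and HOXA2 are highest on the 3 LP isthmus arrays.

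HOXD4, an anterior HOXD gene known in the mouse for shaping neck vertebrae, had the largest tissue difference of the HOX genes in the FP. Its signal in the FP was 6.76, 6.53 and 6.97 in isthmus of heifers 1, 2 and 3, against 8.08, 8.62 and 8.49 in ampulla of the same heifers. In the LP it was 6.77, 6.03 and 5.61 in isthmus, against 8.26, 8.08 and 6.89 in ampulla. The isthmus was lower in each of the 6 heifers, with differences between -2.09 and -1.29, and the groups did not overlap within either phase, although the LP ampulla of heifer 3 lay close to the highest isthmus arrays. The difference was -1.65 (SE 0.36, adjusted p = 0.0376) in the FP and -1.61 (SE 0.36, adjusted p = 0.0163) in the LP. Averaged over the phases it was -1.63 (SE 0.26, adjusted p = 0.00188), a 3.09-fold lower signal in isthmus. Tissue took 71.0% of the sum of squares of HOXD4 over the 12 arrays. The averaged call held without each heifer in turn. The FP call was lost without FP heifer 1, 2 or 3 or LP heifer 2, at adjusted p of 0.129, 0.332, 0.134 and 0.0719, and the LP call was lost without LP heifer 2, at an adjusted p of 0.145.

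HOXD3, the neighbour whose gene model overlaps that of HOXD4, followed the same direction with more spread. In the FP it had signals of 5.53, 5.56 and 6.14 in isthmus and 6.44, 7.36 and 7.40 in ampulla. In the LP it had 5.60, 5.33 and 6.02 in isthmus and 6.51, 6.82 and 5.87 in ampulla. The FP groups did not overlap, while in the LP the ampulla of heifer 3 was below the isthmus of the same animal, and the means of both isthmus groups lay within the dim range. The averaged difference of -1.04 (SE 0.22, adjusted p = 0.00996) was called, and neither phase was on its own: -1.33 (SE 0.32, adjusted p = 0.0519) in the FP and -0.75 in the LP. Without FP heifer 2 or LP heifer 2 the averaged adjusted p was 0.0664 and 0.0554.

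HOXD8, the next HOXD gene on the array, was lower in LP isthmus. Its LP signals of 7.29, 6.95 and 6.96 in isthmus lay below those of 8.26, 7.87 and 7.83 in ampulla, a difference of -0.92 (SE 0.20, adjusted p = 0.0147). In the FP the groups overlapped, with 7.43, 7.36 and 8.04 in isthmus and 7.87, 8.11 and 7.61 in ampulla, and isthmus was higher than ampulla in heifer 3. The LP call was lost without LP heifer 1, 2 or 3 (adjusted p = 0.056, 0.0948 and 0.0729). The averaged difference of -0.58 lay just under the minimum fold, and without FP heifer 3 it was -0.75 and called (adjusted p = 0.00479). The remaining HOXD genes, HOXD1 at the anterior end and HOXD9 to HOXD12 at the posterior end, were not called between the tissues in either phase.

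The HOXB cluster ran the other way. All 9 HOXB genes had a difference above 0 in both phases, with a median of 0.19 in the FP and 0.46 in the LP, although most did not pass the test. HOXB8, at the centre of the cluster and known in the mouse for blood cell development, had LP signals of 7.68, 8.01 and 7.56 in isthmus, against 5.89, 6.48 and 5.76 in ampulla. Every LP isthmus array thus stood above every other array of the series for this gene. The LP difference was 1.71 (SE 0.21, adjusted p = 0.000668), a 3.27-fold higher signal in isthmus. In the FP it had 6.46, 6.87 and 6.64 in isthmus and 6.31, 6.39 and 5.85 in ampulla, groups that did not overlap but whose difference of 0.47 was not called. Averaged over the phases the difference was 1.09 (SE 0.15, adjusted p = 0.000836). The LP and averaged calls held without each heifer in turn.

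HOXB4, known for the growth of blood stem cells, and HOXB3, whose model overlaps it, were higher in isthmus in all 6 heifers with smaller differences. HOXB4 had LP signals of 8.71, 9.17 and 8.79 in isthmus and 8.22, 8.47 and 8.22 in ampulla, which did not overlap. The LP difference of 0.59 (SE 0.13, adjusted p = 0.0172) was a 1.5-fold change, just inside the minimum. It was no longer called without any 1 of the LP heifers: the adjusted p was 0.0528 without heifer 1 and 0.082 without heifer 3, and without heifer 2 the difference of 0.53 was under the minimum fold. In the FP HOXB4 had 8.30, 8.52 and 8.25 in isthmus and 8.10, 7.92 and 7.90 in ampulla, also without overlap. HOXB3 differed by 0.55 (adjusted p = 0.0118) in the LP and 0.45 (adjusted p = 0.00423) averaged, under the minimum fold, and only without LP heifer 1 did its LP difference reach it (0.65, adjusted p = 0.0189).

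In the HOXA cluster only HOXA2 was called. HOXA2, an anterior gene known in the mouse for patterning the hindbrain and the second pharyngeal arch, had LP signals of 8.11, 8.60 and 8.37 in isthmus, against 6.73, 7.26 and 7.44 in ampulla. In the FP it had 7.22, 6.91 and 7.06 in isthmus and 6.66, 7.04 and 6.98 in ampulla. The LP groups stood apart and the FP groups overlapped. The LP difference was 1.22 (SE 0.19, adjusted p = 0.00266) and the averaged difference 0.69 (SE 0.14, adjusted p = 0.00632), and both calls held without each heifer in turn. HOXA5, known in the mouse for lung and gut development, was lower in isthmus in all 6 heifers. Its LP difference of -0.55 (adjusted p = 0.0251) was under the minimum fold, and without LP heifer 1 it was -0.76 and called (adjusted p = 0.00369).

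No HOXC gene was called in any comparison. HOXC4 and HOXC5, the anterior end of that cluster, were lower in isthmus in all 6 heifers. The HOXC5 means in FP isthmus (5.50) and LP isthmus (5.77) lay within the dim range. Differences ran from -0.34 to -0.002 for HOXC4 and from -0.85 to -0.007 for HOXC5, with LP heifer 3 nearest to no difference in both. HOXC6, which was dim, was higher in all 6. In all, 5 of the 33 HOX genes (15.2%) were higher in isthmus in all 6 heifers, namely HOXB2, HOXB3, HOXB4, HOXB8 and HOXC6, against 9.07% of all probesets. Another 5 (15.2%) were lower in all 6, namely HOXA3, HOXA5, HOXC4, HOXC5 and HOXD4, against 10.8% of all probesets. Within the FP, 7 HOX genes were higher in isthmus without overlap of the groups (11.9% of all probesets were) and 8 were lower (13.1%). Within the LP, 5 were higher (14.2%) and 3 lower (15.3%).

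**Figure D2:**
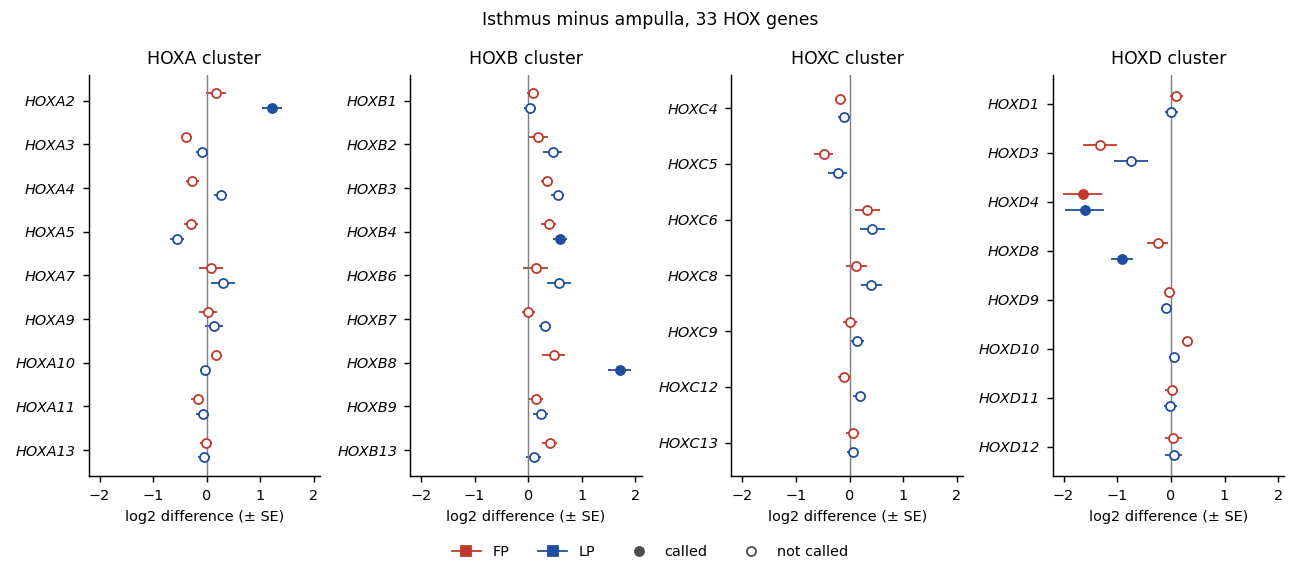
Log2 difference, isthmus minus ampulla (horizontal axes), of the 33 HOX genes by cluster, with its SE, in the FP (red, upper point) and the LP (blue, lower point); filled points were called. HOXD3, HOXD4 and HOXD8 lie left of 0, all 9 HOXB genes lie at or right of 0, and no gene numbered 9 to 13 was called.

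Posterior genes were looked at separately. None of the 13 genes numbered 9 to 13 was called in any of the 6 contrasts by limma. Between the tissues in the FP, 2 of the 13 had an unadjusted p under 0.05. With 0.153% to 8.44% of all probesets called per contrast, a count of 0 among 13 is near the background. The differences of these genes between isthmus and ampulla were between -0.17 and 0.40 (FP) and between -0.08 and 0.24 (LP). Those of the 20 genes numbered 1 to 8 were between -1.65 and 0.47 (FP) and between -1.61 and 1.71 (LP). HOXA9, HOXA10, HOXC9 and HOXD10 to HOXD12 were dim in all groups and HOXA11 and HOXC12 in 3 of 4, whereas HOXA13, HOXB9, HOXB13, HOXC13 and HOXD9 were above the dim range in all groups and were not called either. HOXB13 came nearest, with an averaged difference of 0.25 (SE 0.10, adjusted p = 0.108) and a higher signal in isthmus in 5 of 6 heifers. The probeset with 2 HOXD13 entries had group means of 6.56 in FP isthmus, 6.61 in FP ampulla, 6.51 in LP isthmus and 6.63 in LP ampulla, and was not called.

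The second comparison set the phases against each other within a segment. HOX genes were called in isthmus and none was called in ampulla. In isthmus 2 of 33 genes were called, HOXA2 and HOXB8, both lower in the FP, against 8.44% of all probesets called in this comparison and 4.04% called lower. HOXA2 had the values above, at 6.91 to 7.22 in FP isthmus and 8.11 to 8.60 in LP isthmus, and differed by -1.30 (SE 0.19, adjusted p = 0.00161). HOXB8 was at 6.46 to 6.87 in FP isthmus and 7.56 to 8.01 in LP isthmus and differed by -1.09 (SE 0.21, adjusted p = 0.0061). Neither gene's phases overlapped, the folds were 2.45 and 2.14, and both calls held without each heifer in turn.

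With no minimum fold, 17.1% of all probesets had an adjusted p under 0.05 in isthmus in either direction (4573, of which 2336 were higher in the FP). Among them were 7 HOX genes, all lower in the FP. Beside HOXA2 and HOXB8 these were HOXA4 at -0.54, HOXB4 at -0.53, HOXB3 at -0.48, HOXB7 at -0.47 and HOXA3 at -0.43. Without LP heifer 1, 5 HOX genes were called, HOXA4 (-0.63), HOXB4 (-0.62) and HOXB3 (-0.59) among them. Without overlap of the groups, 7 HOX genes were lower in FP isthmus (17.7% of all probesets) and 2 were higher, HOXD8 and HOXD11 (16.5%). HOXD8, lower in isthmus than in ampulla in the LP, had a phase difference of 0.54 in isthmus (adjusted p = 0.0944).

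In ampulla no HOX gene was called between the phases by limma, against 7.82% of all probesets, and 3 had an unadjusted p under 0.05. The differences ran from -0.34 for HOXA5 to 0.67 for HOXD3. The groups did not overlap for 4 genes that were lower in FP ampulla (18.9% of all probesets), namely HOXA5, HOXA10, HOXB3 and HOXB4, and for 2 that were higher, HOXC4 and HOXC8 (16.6%). HOXA2 averaged 6.89 ± 0.21 in FP ampulla and 7.14 ± 0.37 in LP ampulla, and HOXB8 averaged 6.18 ± 0.29 in FP ampulla and 6.04 ± 0.38 in LP ampulla (SD, n = 3 each).

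**Figure D3:**
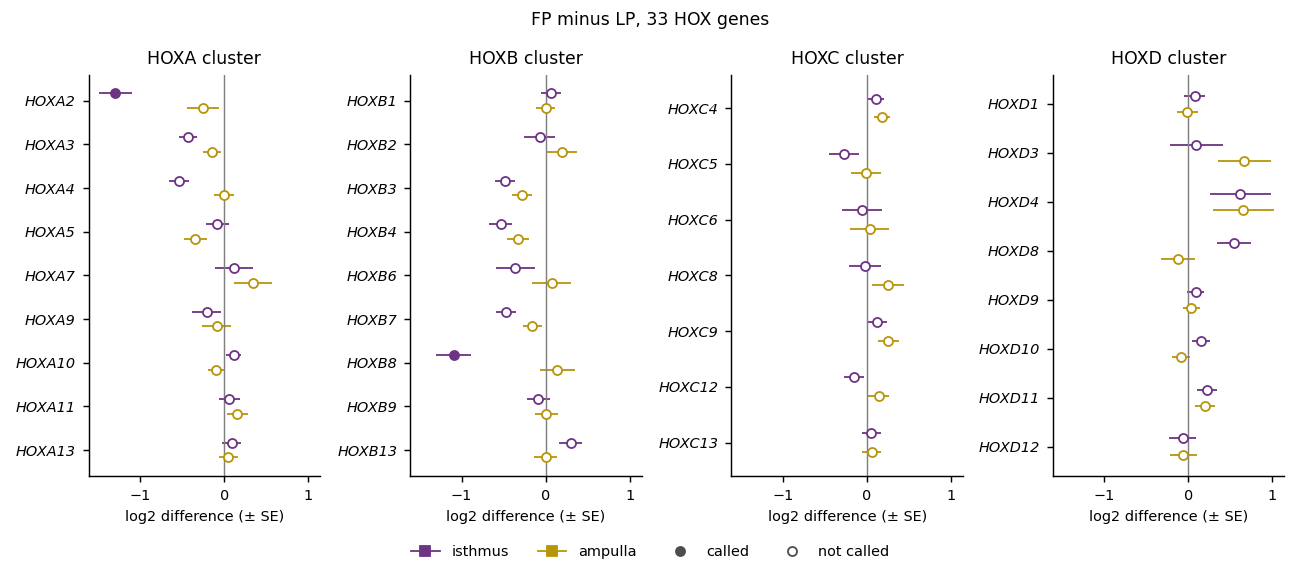
Log2 difference, FP minus LP (horizontal axes), of the 33 HOX genes by cluster, with its SE, in isthmus (purple, upper point) and ampulla (ochre, lower point); filled points were called. HOXA2 at -1.30 and HOXB8 at -1.09 in isthmus are the called genes, and no gene was called in ampulla.

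Whether the tissue difference itself changed with phase was tested as an interaction, the difference in the FP minus that in the LP. No HOX gene was called (0.153% of all probesets were), and 4 had an unadjusted p under 0.05. HOXB8 had an interaction of -1.23 (SE 0.30, adjusted p = 0.192), HOXA2 of -1.05 (SE 0.27, adjusted p = 0.222) and HOXD8 of 0.67 (SE 0.29, adjusted p = 0.484). The LP calls of these genes are therefore not shown to differ from the FP. For HOXD4 the interaction was -0.04 with an SE of 0.51. Under the F-test and LSD contrasts that the methods of the study describe, which do not adjust the contrast itself, 3 genes were called, HOXB8, HOXA2 and HOXA4, against 6.84% of all probesets under the same rule.

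The HOX results can be set beside genes that act with HOX proteins or on HOX clusters. Of 8 measured HOX cofactors 1 was called between the tissues, against 2.35% of all probesets in the FP and 6.99% in the LP. This was MEIS2, a homeodomain partner of HOX and PBX proteins, which was lower in isthmus. It had signals of 10.24, 10.24 and 10.39 in FP isthmus and 10.91, 10.96 and 11.12 in FP ampulla. In the LP it had 9.70, 9.16 and 9.05 in isthmus and 10.70, 10.54 and 10.72 in ampulla. The groups did not overlap in either phase, and the difference was -0.70 (SE 0.15, adjusted p = 0.0324) in the FP and -1.35 (SE 0.15, adjusted p = 0.000356) in the LP. MEIS2 was also higher in FP isthmus than in LP isthmus, by 0.99 (adjusted p = 0.00174). The LP and phase calls held without each heifer, and the FP call was lost without any 1 FP heifer or LP heifer 2, with an adjusted p of up to 0.257.

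Retinoic acid is a known inducer of anterior HOX genes in embryos. Of 13 genes of its synthesis, binding and receptors, 2 were called lower in FP isthmus and 1 in LP isthmus. Over all probesets 0.829% were called lower in the FP and 3.07% in the LP. Without a heifer block none was called higher in isthmus, although 4 of the 13 had a difference above 0 in the FP and 6 in the LP. ALDH1A3, an enzyme that makes retinoic acid, had 5.84, 6.22 and 5.76 in FP isthmus and 7.54, 7.82 and 8.03 in FP ampulla, and 6.08, 5.50 and 5.59 in LP isthmus and 7.79, 7.11 and 6.66 in LP ampulla. The LP isthmus mean of ALDH1A3 lay within the dim range. Its averaged difference of -1.66 (SE 0.19, adjusted p = 0.000284) held without each heifer. The FP difference of -1.86 was lost without FP heifer 2 or 3 and the LP difference of -1.46 without LP heifer 2, at adjusted p of up to 0.0613 and 0.0624. CRABP2, which carries retinoic acid to its receptors, differed by -1.06 averaged (SE 0.20, adjusted p = 0.00476), a call that also held without each heifer. Its FP difference of -1.30 (adjusted p = 0.0335) was lost without FP heifer 1, 2 or 3 or LP heifer 3, at adjusted p of up to 0.253, and its LP difference of -0.82 had an adjusted p of 0.0882, and 0.0186 with heifer as a block. Between the phases, CRABP2 was higher in FP ampulla by 1.33 (adjusted p = 0.00941; 0.0503 without FP heifer 2), and ALDH1A1, another enzyme of this step, was higher in FP isthmus by 1.22 (adjusted p = 0.00378). RARA, a retinoic acid receptor, was higher in FP isthmus by 0.66 (adjusted p = 0.0121), a call lost without FP heifer 1 or 2 (adjusted p of up to 0.0552). Between the tissues in the FP, RARA differed by 0.59, with an adjusted p of 0.0589, and of 0.0473 with heifer as a block.

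**Figure D4:**
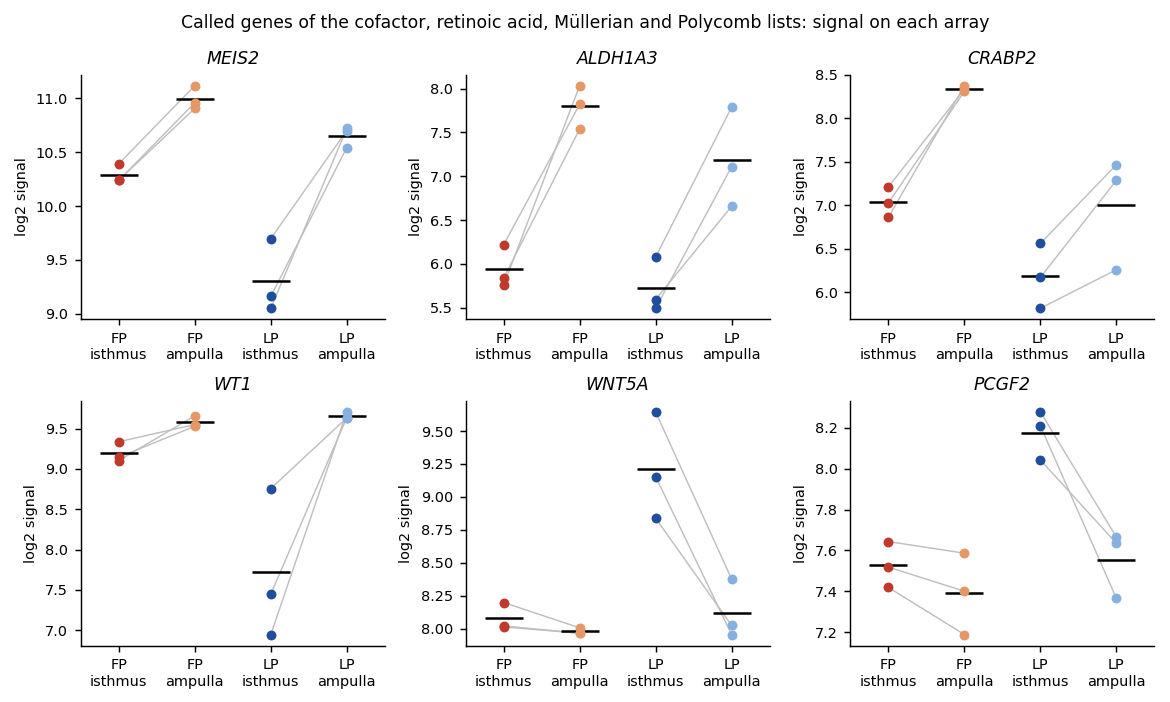
Log2 signal (vertical axes, each with its own range) of 6 called genes of the cofactor, retinoic acid, Müllerian duct and Polycomb lists on each array; points are arrays, black bars are group means, and grey lines join isthmus and ampulla of 1 heifer. MEIS2, ALDH1A3 and CRABP2 are lower in isthmus in all 6 heifers, and WNT5A and PCGF2 are highest on the LP isthmus arrays.

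Of 8 genes of Müllerian duct patterning, 2 were called higher and 1 lower in LP isthmus, and none in the FP. Over all probesets 3.92% were called higher and 3.07% lower in the LP, and 2.35% in either direction in the FP. WNT5A, a secreted Wnt ligand needed for the mouse reproductive tract, had 8.84, 9.15 and 9.64 in LP isthmus and 8.02, 7.95 and 8.38 in LP ampulla, a difference of 1.09 (SE 0.18, adjusted p = 0.00324). It was at 8.01 to 8.20 in FP isthmus, and so lower there than in LP isthmus by 1.14 (adjusted p = 0.00223). WT1, a zinc finger factor of the urogenital ridge, ran the other way, with 8.76, 6.95 and 7.45 in LP isthmus against 9.63, 9.71 and 9.64 in LP ampulla (difference -1.94, SE 0.34, adjusted p = 0.00453). WT1 was higher in FP isthmus than in LP isthmus by 1.48 (adjusted p = 0.0142), a call lost without any of FP heifers 1 to 3 or LP heifers 2 and 3 (adjusted p of up to 0.0688). DACH1, a transcription cofactor, was higher in LP isthmus by 0.84 (adjusted p = 0.0116), lost without LP heifer 2 or 3 (adjusted p of up to 0.0858), and PAX2, a paired box factor of the urogenital tract, was lower in FP isthmus by 0.59 on the log2 scale, just past the minimum fold, under which it fell without FP heifer 1 or 3 or LP heifer 3 (smallest size 0.53).

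Polycomb proteins keep HOX genes silent and Trithorax proteins keep them active. Of 14 Polycomb genes, 1 was called between the tissues in the LP, PCGF2, which was higher in isthmus by 0.62 (adjusted p = 0.00912; up to 0.0851 without LP heifer 2 or 3). None was called in the FP. Over all probesets 6.99% were called in the LP and 2.35% in the FP, so these Polycomb counts are near the background. PCGF2 was also lower in FP isthmus than in LP isthmus, by 0.65 on the log2 scale (adjusted p = 0.00584). EZH2, the methyltransferase of the silencing mark, was lower in isthmus averaged over the phases (difference -0.85, adjusted p = 0.0111), a call lost without FP heifer 2 or LP heifer 1 (adjusted p of up to 0.0606). By phase, EZH2 was higher in the FP by 1.28 in isthmus and 1.32 in ampulla, while its relative EZH1 was lower by 0.75 and 0.86 on the log2 scale and CBX7, which reads the mark, by 1.21 and 1.10. The EZH1 and CBX7 calls held without each heifer, and those of EZH2 were lost without FP heifer 3 in isthmus (adjusted p = 0.0507) and FP heifer 2 in ampulla (adjusted p = 0.052). Of 9 Trithorax and demethylase genes only KMT2A was called, lower in FP ampulla with a difference of -0.65 (adjusted p = 0.000284). Over all probesets 7.82% were called between the phases in ampulla.

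None of 9 other homeobox genes related to the HOX family was called in any contrast, where 0.153% to 8.44% of all probesets were. MEOX1 came nearest, at 0.47 higher in FP isthmus (adjusted p = 0.0247, under the minimum fold). The 6 measured microRNA genes of the HOX clusters were not called. MIR10A, MIR10B, MIR196A-1, MIR196A-2 and MIR196B were dim in every group. MIR615 was dim except in LP isthmus, where its mean was 5.95. Of 16 measured genes next to the clusters, SKAP1, separated from HOXB1 by 1 protein-coding gene in RefSeq, was higher in LP isthmus by 0.65 (adjusted p = 0.00927; up to 0.0634 without LP heifer 1 or 2). SNX10, a gene near the HOXA cluster, was lower in isthmus averaged over the phases, with a difference of -1.04 (adjusted p = 0.0043), and its LP difference of -1.26 (adjusted p = 0.0126) was lost with heifer as a block (adjusted p = 0.0573) and without LP heifer 2 (adjusted p of up to 0.126). MTX2, next to HOXD1, and LNPK, beyond HOXD13, were not called between the tissues. Both were lower in isthmus in every heifer, as 10.8% of all probesets were. MTX2 had 10.64, 10.52 and 10.54 in LP isthmus and 10.95, 10.91 and 10.97 in LP ampulla. LNPK had 9.08, 9.30 and 8.99 in LP isthmus and 9.69, 9.45 and 9.39 in LP ampulla. Of the 16 genes, 13 had a difference below 0 in the FP and 12 in the LP. In the LP 1 of the 16 was called higher in isthmus and 1 lower, against 3.92% and 3.07% of all probesets. Between the phases, ATP5MC1 (beyond HOXB13) was higher in the FP by 1.26 in isthmus and 1.29 in ampulla and ATP5MC3 (beyond HOXD13) by 0.99 and 0.91, while CALCOCO1, next to HOXC13, was lower by 0.94 and 0.75 on the log2 scale. HOXB13, HOXC13 and the probeset of HOXD13 were not called.

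Some markers of stroma, smooth muscle and endothelium differed between the tissues, while no leukocyte or erythrocyte marker was called there without a heifer block. In a bulk sample fewer cells of a type and less RNA per cell cannot be told apart. All 10 epithelial markers were above the dim range in every group and their mean signal was 10.4 to 10.6 in FP isthmus, 10.4 in FP ampulla, 10.4 to 10.7 in LP isthmus and 10.3 to 10.4 in LP ampulla. Single epithelial markers nevertheless differed. CLDN4, a tight junction protein, was higher in isthmus by 1.09 (adjusted p = 0.012) in the FP and by 1.99 (adjusted p = 0.000115) in the LP, and its 3 LP isthmus arrays were the highest of the series, as for HOXB8 and HOXA2. CDH1, the epithelial cadherin, was higher in LP isthmus by 0.61 (adjusted p = 0.00497). Between the phases in isthmus, CLDN4 differed by -1.43, CLDN3 by -0.91 and KRT8 by 0.72, and in ampulla KRT8 by 0.79. The LP call of CLDN4 and these phase calls held without each heifer, while the FP call of CLDN4 was lost without FP heifer 1 or 2 (adjusted p of up to 0.127) and that of CDH1 without LP heifer 2 or 3 (adjusted p of up to 0.053).

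Of 10 fibroblast and stroma markers, 10 had a difference above 0 in the FP and 7 in the LP. In the LP COL1A1, COL1A2 and PDGFRB were below 0, down to -0.12. In the FP 2 were called higher in isthmus, DCN (3.16) and FBLN1 (1.41), against 1.52% of all probesets. In the LP 3 were, LUM (3.78), FBLN1 (2.50) and PDGFRA (0.65), against 3.92%. None was called lower. Among these the FBLN1 call in the LP held without each heifer, while LUM in the LP had an adjusted p of 0.0786 with heifer as a block, and was lost without FP heifer 1, 2 or 3 or LP heifer 1 or 2 (adjusted p of up to 0.297), and the DCN call in the FP was lost without FP heifer 1, 2 or 3 or LP heifer 1 (adjusted p of up to 0.211). The FBLN1 call in the FP was lost without FP heifer 2 (adjusted p of up to 0.181), and that of PDGFRA without LP heifer 1 or 2 (adjusted p of up to 0.075).

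The mean stroma signal was 8.47, 7.67 and 7.74 in FP isthmus and 6.68, 6.57 and 6.94 in FP ampulla. In the LP it was 8.24, 8.03 and 7.10 in isthmus and 6.69, 7.04 and 6.85 in ampulla. All isthmus arrays were thus above all ampulla arrays. DPT was at the dim level in FP ampulla, LP isthmus and LP ampulla. In FP isthmus it had signals of 6.26, 5.60 and 5.70, and their mean was above that level. The LP isthmus with the least stroma signal, that of heifer 3, had a HOXB8 of 7.56 and a HOXA2 of 8.37, and the FP isthmus with the most, that of heifer 1, had 6.46 and 7.22. Of 7 smooth muscle markers, MYH11 was higher in LP isthmus than in LP ampulla (1.36, adjusted p = 0.000495) and lower in FP isthmus than in LP isthmus (-1.01). ACTG2, dim in all 4 groups, was higher in isthmus averaged over the phases (0.70, adjusted p = 0.0271), a call lost without FP heifer 3 or LP heifer 1 or 3 (adjusted p of up to 0.101). Of 8 endothelial markers only KDR was called between the tissues, and 5 of the 8 had a difference above 0 in each phase. KDR was lower in LP isthmus (-2.38, adjusted p = 0.0244), where 6.99% of all probesets were called. This call was lost without LP heifer 2 or 3 (adjusted p of up to 0.145). The averaged KDR difference of -2.13 was called and held without each heifer in turn. FBLN1 was also lower in FP isthmus than in LP isthmus (-1.07, adjusted p = 0.013), the direction of HOXA2 and HOXB8, a call lost without FP heifer 3 or LP heifer 2 (adjusted p of up to 0.0687). The part of these cells in the HOX differences was not tested.

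**Figure D5:**
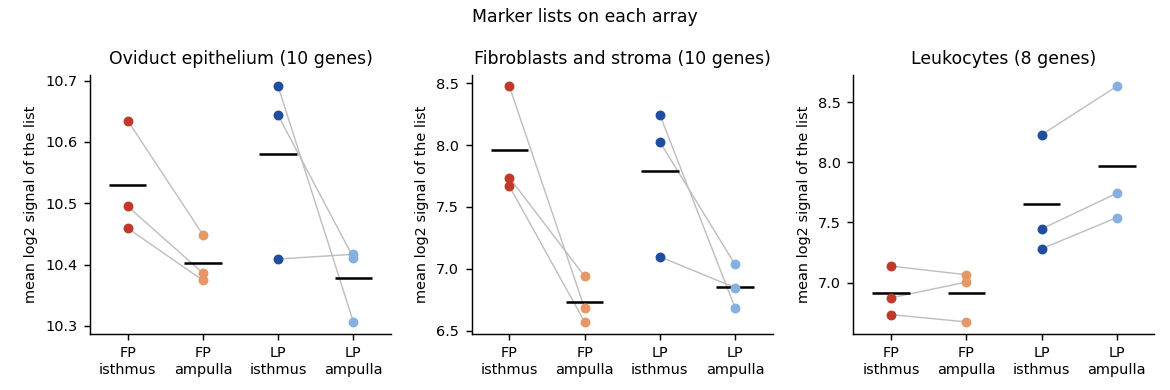
Mean log2 signal (vertical axes, each with its own range) of the epithelial, stromal and leukocyte marker lists on each array; points are arrays, black bars are group means, and grey lines join isthmus and ampulla of 1 heifer. The stromal list mean is higher on every isthmus array, at 7.10 or more, than on any ampulla array, at 7.04 or less. The leukocyte list mean is higher on every LP array than on any FP array.

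The leukocyte markers followed phase as a list mean. In ampulla all 8 were lower in the FP. In isthmus 5 were lower, and CD14, CD68 and CD79B were higher by up to 0.10. Their mean signal was 6.73 to 7.14 in FP isthmus, 6.67 to 7.07 in FP ampulla, 7.28 to 8.23 in LP isthmus and 7.54 to 8.63 in LP ampulla. Of 8 markers, 1 was called lower in FP isthmus than in LP isthmus, CSF1R (4.04% of all probesets were). In ampulla 4 were called lower in the FP, CSF1R, PTPRC, CD3E and CD2 (3.38% of all probesets were). CSF1R differed by -0.79 in isthmus and -0.88 in ampulla, and each of these calls was lost without FP heifer 1, among others, at adjusted p of up to 0.095 for CSF1R in isthmus and 0.152 for CD2. Between the tissues in the LP, PTPRC differed by -0.72, with an adjusted p of 0.363, and of 0.0165 with heifer as a block. The highest leukocyte signal was that of LP heifer 3, whose ampulla also had the lowest HOXD4 and HOXD3 of its group. The isthmus of that heifer had the highest leukocyte signal of the LP isthmus arrays. It had their lowest HOXD4 (5.61) but their highest HOXD3 (6.02). The part of leukocytes in these values was not tested. None of 3 erythrocyte markers was called in any contrast.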

How the data were processed

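The deposited log2 values were made by the authors from Bovine Gene 1.0 ST arrays, 1 for each of 12 RNA samples, by robust multiarray analysis with quantile normalization and median polish. The submitters' processing notes name GCOS 1.2 and Partek 6.4. No detection calls came with the values. They were used as deposited, and the number of arrays limits the precision. Arrays were grouped by the labels (3 in each of 4 groups), and 688 probesets with several symbols and 7628 with none stayed in the fit unnamed. Names were checked against RefSeq (ARS-UCD2.0). Its positions gave the order, overlap and spacing of gene models. No coordinates are printed, because the sources name no build for the files.

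A mean per group was fitted to all 26773 probesets with limma 3.58.1 in R 4.3.3 (8 residual degrees of freedom), with 6 contrasts and Benjamini-Hochberg adjustment over all probesets of each. Calls needed a change of 1.5-fold or more with an adjusted p under 0.05, and in the interaction the adjusted p alone. The fit was tested on simulated data. Figures were drawn with matplotlib 3.10.9 in Python 3.11.15. The labels give isthmus and ampulla of the same heifer, which pairs them. Deviations from the group means correlated between the segments of a heifer at 0.22 to 0.37 in the LP (-0.22 to -0.05 between different heifers) and at -0.17 to -0.05 in the FP (-0.15 to 0.24 between different heifers). The main fit had no block, after the methods of the study, and fits with a fixed or a random heifer block, other filters, scalings and tests, and the leaving out of each heifer were the alternatives. Replicates were separate animals.

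The HOX genes and all gene lists were chosen with earlier results of these data known. Values on every array are given for HOX genes called in at least 1 contrast, and of each list up to 4 called genes in each direction are named, or up to 2 with the smallest p where none was called. Listed genes not on the array with a single symbol were left out. MTX2 and LNPK, and the values of heifers with the most and least stroma signal, were picked after the values were seen. So was the setting of LP heifer 3's leukocyte signal beside its HOXD4 and HOXD3.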

Additional observations from a re-analysis of the deposited data

Results flagged for a closer look

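HOXA4 was the 1 result flagged, because the 3 FP heifers and the 3 LP heifers moved in opposite directions between the segments. Isthmus minus ampulla was -0.11, -0.28 and -0.42 in the FP heifers and 0.22, 0.35 and 0.22 in the LP heifers. Signals were 7.71, 7.48 and 7.62 in FP isthmus, 7.81, 7.76 and 8.04 in FP ampulla, 7.95, 8.26 and 8.21 in LP isthmus and 7.73, 7.92 and 7.99 in LP ampulla. The FP groups did not overlap, and the LP groups did. The FP difference minus the LP difference was -0.53 (SE 0.17). In the test of that difference the adjusted p was 0.329 (limma), and 0.27 with heifer as a block, so the call was not made.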

How the results depend on the processing

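HOX calls in the FP between the tissues numbered 1, and 2 (HOXD3 with HOXD4) with heifer as a random replicate block, under the F-test and LSD contrasts, with dim probesets left out, with the prior variance as a trend, or with arrays centred on their medians. They ranged from 0 to 2 without 1 heifer. In the LP the 5 calls became 3 when only the compared groups were fitted and 2 to 5 without 1 heifer. HOXB4 and HOXD4 were lost in that fit of the compared groups, at adjusted p of 0.0722 and 0.0839. The averaged contrast had 4 calls, 8 with no minimum fold and 3 to 5 without 1 heifer. FP against LP in isthmus had 2, then 7 with no minimum fold and 2 to 5 without 1 heifer, and in ampulla 0 under every alternative run. The interaction had 0, and 3 under the F-test and LSD contrasts, where HOXB8 (-1.23) and HOXA2 (-1.05) were called.

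Over the whole array, 629 probesets called in the FP between the tissues became 1013 under the F-test and LSD contrasts and 113 to 615 without 1 heifer, the lowest count being that without FP heifer 2. In the LP 1871 became 3282 with no minimum fold and 1067 to 1784 without 1 heifer, the averaged 1582 became 4409 and 1212 to 1541, the 2259 of FP against LP in isthmus became 4573 and 1764 to 2146, and the 2094 in ampulla became 4414 and 1483 to 2149. The 41 of the interaction became 19 with heifer as a fixed replicate block, 1831 under the F-test and LSD contrasts, 74 with the trend and 0 to 141 without 1 heifer. The near-zero HOXD4 interaction of -0.04 ranged from -0.26 to 0.19 without 1 heifer and changed sign without FP heifer 2 (0.19), LP heifer 1 (0.02) or LP heifer 3 (0.13). The causes of these changes were not tested, beyond fewer samples in the fits that leave out a heifer.

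The fixed heifer block changed no HOX call, and among the listed genes it added calls between the tissues for RARA in the FP and CRABP2 and PTPRC in the LP and ended those of SNX10 and LUM in the LP. Animal numbers shared by FP and LP name different heifers, and with number as a replicate block the HOX counts stayed 2 in isthmus and 0 in ampulla, with correlations of -0.11 to 0.09 between same-numbered ampullae and -0.03 to 0.07 between isthmi. Of 1309 values of single genes under the alternatives, 1170 kept direction and side of the threshold, 113 lost the call, 23 gained it and 3 changed sign. The choice of the lowest probeset of a gene gave no values, because each HOX gene had 1 probeset. Dim signals and 3 heifers a phase limit what could be seen.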
